A study of Mus musculus with 16 samples.

Results

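Of the 55487 genes counted in each library, 9 genes of the B lymphocyte lineage were followed: Ighm, Ighd, Igkc, Iglc2, Cd79a, Cd79b, Ms4a1, Mzb1 and Jchain. They were picked by symbol for what they encode, with earlier results of these data known. All 9 passed edgeR's filter on low counts in the comparisons of multiparous with virgin hearts, with and without the library virgin 1. All samples were left ventricular mid sections of C57Bl/6J mice, 24 months old, of which 8 had gone through more than 3 pregnancies (multiparous) and 8 were virgin. None of the mice had been treated, and all hearts had been flushed with cold saline before excision. In the submitters' library names, multiparous hearts have the code P (multiparous 1, 2, 5 and 7) or MP (multiparous 3, 4, 6 and 8), whose meaning the labels do not give, and all virgin hearts carry the code AA. Parity and library code therefore cannot be told apart in the comparison of the 2 groups. Counts assigned to genes came to 34560606 to 58890976 in 15 libraries and to 228325238 in virgin 8. The cardiac origin was plain in every library, with the cardiomyocyte myosin gene Myh6 at 17850 to 23559 CPM, the unit used throughout (counts scaled to the library's total over genes that passed the filter, times edgeR's TMM factor).

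B cells carry an antigen receptor made of a membrane immunoglobulin and a signalling pair, Cd79a and Cd79b. Each B cell clone joins its own variable segments to a heavy chain constant gene and to a kappa or lambda light chain constant gene, so a clone can be followed by the segments it uses. Naive B cells make Ighm (IgM) and Ighd (IgD) from 1 long transcript, while activated cells may switch to Ighg, Igha or Ighe and mature into plasma cells, which stop making surface markers such as Ms4a1 (CD20) and secrete large amounts of antibody with the help of Mzb1 and Jchain. The heart holds a small resident and circulating population of B cells. In whole tissue, more cells of a type and more RNA per cell cannot be told apart.

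One library, virgin 1, stood apart before any comparison was made. It held the highest level of 7 of the 9 genes among all 16 libraries, the exceptions being Ighm, where it had rank 4, and Ighd, where it had rank 9. Its Igkc level was 57.1 times the median of the other 7 virgin hearts, its Iglc2 level 36.7 times and its Jchain level 32.4 times. Comparisons of the groups are therefore given with all 16 libraries and again without virgin 1. That library was set aside with its values known, and the p-values of the 15-library fit take no account of that choice.

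**Figure D1:**
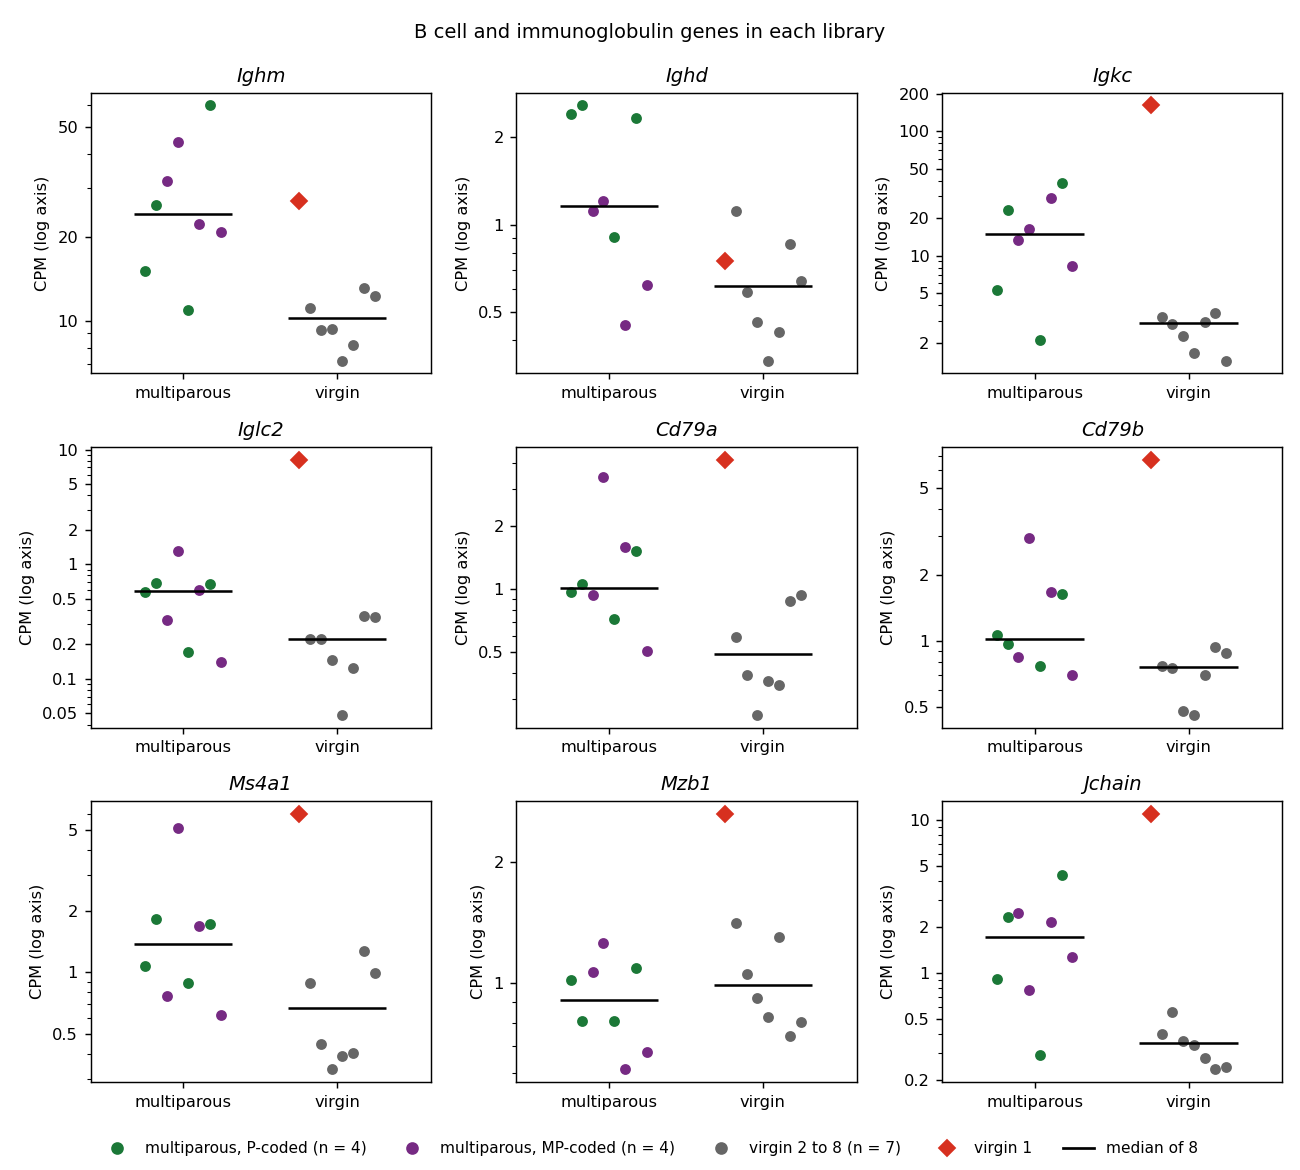
Level of each gene in each of the 16 libraries, in CPM on a log axis, with 8 multiparous hearts (green P-coded, purple MP-coded) and 8 virgin hearts (grey, with virgin 1 as a red diamond). Black lines are group medians, and virgin 1 is the topmost point for all genes but Ighm and Ighd.

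Ighm, the heavy chain of IgM, was the most abundant of the 9 by count. It measured 10.9 CPM in the lowest multiparous heart, 24.2 CPM at the median and 59.8 CPM in the highest. The other 7 virgin hearts spanned 7.17 to 13.1 CPM with a median of 9.30 CPM, and virgin 1 measured 27.0 CPM. In all, 7 multiparous hearts lay above the highest of those 7 virgin hearts, and multiparous 5 lay within their range. Ighd, the heavy chain of IgD that naive B cells make beside IgM, measured 0.450 to 2.58 CPM in multiparous hearts (median 1.16 CPM). In the 7 virgin hearts it measured 0.339 to 1.11 CPM (median 0.584 CPM), and virgin 1 was inside that range at 0.752 CPM. The groups overlapped, with 4 multiparous hearts above every virgin one.

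Igkc, the constant part of all kappa light chains, measured 2.11 to 38.6 CPM in multiparous hearts with a median of 14.97 CPM. The 7 virgin hearts held 1.43 to 3.44 CPM (median 2.81 CPM), against 160.4 CPM in virgin 1. As for Ighm, 7 of the 8 multiparous hearts exceeded all 7 virgin hearts, and multiparous 5 was the exception. Iglc2, a lambda light chain constant gene, was scarce at 0.141 to 1.31 CPM in multiparous and 0.0485 to 0.352 CPM in the 7 virgin hearts, which rested on as few as 2 counts in a library. Virgin 1 measured 8.16 CPM of it. Kappa made up a median of 94.3% of light chain constant counts in multiparous hearts and 85.6% in the 7 virgin hearts.

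Cd79a and Cd79b, the signalling pair of the receptor, had similar levels. Cd79a measured 0.506 to 3.45 CPM (median 1.01 CPM) in multiparous hearts and 0.251 to 0.944 CPM (median 0.389 CPM) in the 7 virgin hearts. Cd79b measured 0.703 to 2.94 CPM (median 1.02 CPM) against 0.460 to 0.938 CPM (median 0.750 CPM). For both genes 5 multiparous hearts lay above the 7 virgin hearts, the highest being multiparous 4. Ms4a1, the surface protein CD20 of mature B cells, measured 0.619 to 5.13 CPM (median 1.38 CPM) against 0.335 to 1.27 CPM (median 0.445 CPM), again with multiparous 4 on top. Virgin 1 held 4.16 CPM of Cd79a, 6.70 CPM of Cd79b and 5.99 CPM of Ms4a1, above every multiparous heart.

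The 2 genes tied to antibody secretion did not follow each other. Jchain, which links IgM and IgA into polymers, measured 0.291 to 4.40 CPM in multiparous hearts (median 1.72 CPM) and 0.234 to 0.556 CPM in the 7 virgin hearts (median 0.339 CPM). Again 7 multiparous hearts lay above all 7 virgin hearts, with multiparous 5 among the virgin values. Mzb1, an endoplasmic reticulum chaperone for immunoglobulin, measured 0.613 to 1.26 CPM in multiparous and 0.742 to 1.41 CPM in the 7 virgin hearts. No multiparous heart exceeded the highest virgin heart for Mzb1, whose values in the groups lay over each other. Virgin 1 held 11.0 CPM of Jchain and 2.63 CPM of Mzb1. Of the 1215 exon bases of Mzb1, 695 are shared with a same-strand model named SPATA24, so its count is uncertain.

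Per kilobase of exon, which allows levels of different genes to be compared, Igkc had the highest median in multiparous hearts at 28.1 CPM per kb, followed by Ighm at 12.8 CPM per kb. The next 6 medians, from Iglc2 at 0.950 to Ighd at 0.609 CPM per kb, lay inside the range of each gene over the 8 libraries, and Ms4a1 was lowest at 0.224 CPM per kb. In the 7 virgin hearts Igkc (5.28 CPM per kb) and Ighm (4.93 CPM per kb) were level within their spread, with Mzb1 next at 0.759 CPM per kb. Since 695 of the 1215 exon bases of Mzb1 are shared with another model, its place in both orders is uncertain.

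With all 16 libraries, none of the 9 genes passed an adjusted p of 0.05 over 17813 genes in the edgeR quasi-likelihood test with Benjamini-Hochberg adjustment, a comparison in which 0.0112% of all genes were called. Ighm came nearest, at 28.9 ± 16.2 CPM against 12.2 ± 6.31 CPM (SD, n = 8 each), a log2 fold change of 1.24 (SE 0.32, edgeR adjusted p = 0.190). Ighd differed by 1.17 (SE 0.34, edgeR adjusted p = 0.272). These were the only 2 of the 9 with an unadjusted p under 0.05, a mark that 8.12% of all genes reached and 4.04% reached in the higher direction. Igkc differed by −0.38 with a 95% interval from −2.36 to 1.595, and Jchain by 0.14 with an interval from −1.55 to 1.82, so neither direction was determined. The edgeR adjusted p of the 7 genes other than Ighm and Ighd ran from 0.747 (Mzb1) to 0.986 (Jchain).

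Without virgin 1, Ighm, Igkc and Jchain passed and were higher in multiparous hearts, where 0.128% of 17901 genes were called and 0.0503% were called as higher. Igkc measured 17.0 ± 12.5 CPM (SD, n = 8) against 2.53 ± 0.773 CPM (SD, n = 7), a log2 fold change of 2.79 (SE 0.48, 95% interval 1.78 to 3.80, edgeR adjusted p = 0.0480). Jchain measured 1.83 ± 1.31 against 0.343 ± 0.112 CPM, a log2 fold change of 2.47 (SE 0.45, 95% interval 1.52 to 3.41, edgeR adjusted p = 0.0480). Ighm measured 28.9 ± 16.2 against 10.1 ± 2.18 CPM, a log2 fold change of 1.51 (SE 0.29, 95% interval 0.90 to 2.12, edgeR adjusted p = 0.0480). Another 5 genes had an unadjusted p under 0.05 and did not pass: Ighd (1.202, edgeR adjusted p = 0.174), Cd79a (1.23, 0.180), Cd79b (0.87, 0.220), Iglc2 (1.296, 0.220) and Ms4a1 (1.28, 0.224), each followed by its log2 fold change and edgeR adjusted p. That made 8 of 9 higher at this mark, which 6.13% of all genes reached in that direction. Mzb1 was the exception, differing by −0.12 with a 95% interval from −0.51 to 0.26 (edgeR adjusted p = 0.852). None of the 9 separated the 8 multiparous from the 7 virgin hearts without overlap, which 0.0447% of all genes did in the higher direction.

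**Figure D2:**
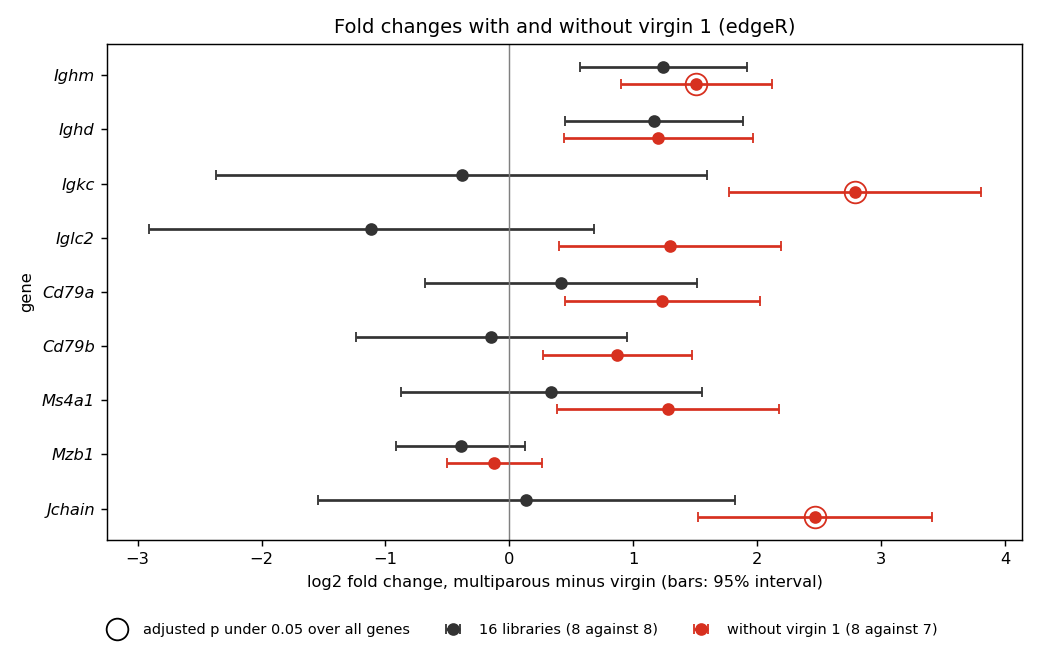
Log2 fold change of each gene, multiparous minus virgin, with 95% intervals from edgeR, for all 16 libraries (black) and without virgin 1 (red). Ringed points, Ighm, Igkc and Jchain without virgin 1, passed an adjusted p of 0.05, and both intervals of Mzb1 include 0.

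The 3 calls lay at the edge of the threshold. When 1 more library was left out in each of 15 fits, Igkc passed in 5 (without multiparous 1, 3 or 5 or virgin 5 or 7), Jchain in 4 (without multiparous 3 or 5 or virgin 5 or 7) and Ighm in 3 (without multiparous 3 or 5 or virgin 7). Over these fits the edgeR adjusted p ran from 0.00870 to 0.115 for Igkc and Jchain and from 0.0294 to 0.117 for Ighm, while the log2 fold changes stayed within 2.49 to 2.96, 2.13 to 2.64 and 1.27 to 1.63. The calls were also lost in limma voom (adjusted p = 0.132 for Igkc, 0.118 for Jchain and 0.107 for Ighm) and kept in DESeq2, which added Cd79a (adjusted p = 0.0344) and Ighd (adjusted p = 0.0415) while calling 1.78% of all genes. With all 16 libraries, DESeq2 replaced counts of virgin 1 as outliers, so that its 7682 counts of Igkc were imputed as 393 and its 526 counts of Jchain as 45. On those imputed values DESeq2 gave log2 fold changes of 2.40 for Igkc (adjusted p = 0.00198), 2.14 for Jchain (adjusted p = 0.000602) and, with its counts kept, 1.25 for Ighm (adjusted p = 0.0498), and called 0.744% of all genes.

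The same 3 genes were also read within each library code of the multiparous hearts, set against the 7 virgin hearts. Igkc differed by 2.77 in the MP-coded hearts (edgeR adjusted p = 0.00456) and by 2.80 in the P-coded hearts (edgeR adjusted p = 0.0390). Jchain differed by 2.35 (edgeR adjusted p = 0.0168) and 2.57 (edgeR adjusted p = 0.0423). Ighm differed by 1.56 (edgeR adjusted p = 0.0147) and 1.46 (edgeR adjusted p = 0.0887). In these fits 0.0276% and 0.47% of all genes were called. Against all 8 virgin hearts none of these calls held in either code. Igkc then differed by −0.39 in the MP-coded (edgeR adjusted p = 0.964) and −0.37 in the P-coded hearts (edgeR adjusted p = 0.975). Jchain differed by 0.027 (edgeR adjusted p = 0.997) and 0.24 (edgeR adjusted p = 0.980), and Ighm by 1.29 (edgeR adjusted p = 0.280) and 1.191 (edgeR adjusted p = 0.370).

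Of the 9 genes, Ighd had the smallest p between the codes. It measured 2.42, 2.58, 0.909 and 2.33 CPM in the P-coded hearts and 1.11, 1.203, 0.450 and 0.619 CPM in the MP-coded hearts. The P-coded mean was 2.06 ± 0.773 CPM and the MP-coded mean 0.846 ± 0.368 CPM (SD, n = 4 each), a log2 difference of MP minus P of −1.28 (SE 0.38) that did not pass over all genes (edgeR adjusted p = 0.231, with 0.0106% of genes called). The other 8 genes differed between the codes with edgeR adjusted p of 0.846 or more. Against all 8 virgin hearts, Ighd passed in the P-coded hearts alone with a log2 fold change of 1.66 (edgeR adjusted p = 0.0333, with 0.521% of genes called) and not in the MP-coded hearts (0.38, edgeR adjusted p = 0.799). Without virgin 1 the values were 1.69 (edgeR adjusted p = 0.0292) and 0.41 (edgeR adjusted p = 0.646). The number of Ighm counts per Ighd count was 6.24 to 25.6 in P-coded, 28.7 to 49.7 in MP-coded and 9.98 to 35.9 in virgin hearts. The highest virgin value was that of virgin 1, and the other 7 reached 21.1. These ranges rest on 4 hearts per code and on the same Ighd counts, and the ratio was not tested between the codes.

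The naive B cell and plasma cell programmes were then read from lists of 22 and 18 genes, of which 19 and 14 were tested. Without virgin 1, all 19 naive and mature B cell genes had higher estimates in multiparous hearts, 16 with an unadjusted p under 0.05, and 1 passed (Ighm), with a median log2 fold change of 1.09 where the median of all genes was 0.0044. Over all genes, 9236 of 17901 had higher estimates, 6.13% reached the unadjusted mark as higher and 0.0503% were called as higher. With the genes already described left out, 14 of 14 had higher estimates, 11 with an unadjusted p under 0.05, none passed, and the median was 1.07. Cd22, an inhibitory receptor of B cells, measured 2.09 ± 0.849 CPM in multiparous and 0.984 ± 0.257 CPM in the 7 virgin hearts (edgeR adjusted p = 0.0828). H2-Ob, a gene of the class II antigen presentation pathway in B cells, measured 1.33 against 0.907 CPM (edgeR adjusted p = 0.145). Cr2, the complement receptor CD21, measured 0.603 against 0.168 CPM (edgeR adjusted p = 0.154). With virgin 1 included the same list split 8 higher to 11 lower with a median of −0.20 and no call, and the genes not yet described split 4 to 10.

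Of the 14 plasma cell genes, 11 had higher and 3 lower estimates without virgin 1, 4 had an unadjusted p under 0.05, 1 passed (Jchain), and the median log2 fold change was 0.10. All 4 were higher, where 6.13% of all genes reached that mark and 0.0503% were called as higher. With Jchain and Mzb1 left out, 10 of 12 had higher estimates, 3 with an unadjusted p under 0.05, and none passed. Over the 16 libraries the list split 7 to 7 with a median of 0.00, 1 gene with an unadjusted p under 0.05 (Xbp1) and no call. Irf4, a transcription factor of plasma cells, measured 2.60 against 1.83 CPM (log2 fold change 0.51, edgeR adjusted p = 0.136). Xbp1, which expands the secretory apparatus and is made by many cell types, measured 64.3 against 57.4 CPM (log2 fold change 0.16, edgeR adjusted p = 0.296). Ighg3, the IgG3 heavy chain, measured 5.52 ± 13.4 CPM (SD, n = 8) against 0.898 ± 1.06 CPM (SD, n = 7), with 38.6 CPM in multiparous 6 alone (log2 fold change 2.78, edgeR adjusted p = 0.363). Of the other antibody genes tested in this list, Igha differed by 1.18 (edgeR adjusted p = 0.510) and Ighg2c by −0.052 (edgeR adjusted p = 0.859). Txndc5, a gene of the secretory pathway, had a log2 fold change of 0.094 (edgeR adjusted p = 0.431). The median of this list thus also covers genes with high levels in every heart, at least 51.7 CPM for Xbp1 and 37.1 CPM for Txndc5. The difference between the lists was not tested.

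Receptor signalling genes gave 19 of 19 higher estimates without virgin 1 and none passed, with a median log2 fold change of 0.24. An unadjusted p under 0.05 was reached by 9 of the 19, all higher, and by 6.13% of all genes in that direction. Plcg2, the phospholipase behind the receptor, measured 16.9 against 14.7 CPM (edgeR adjusted p = 0.196). With all 16 libraries this list split 10 to 9 with a median of 0.00. Among 11 tested factors and receptors of B cell survival and homing, 8 had higher and 3 lower estimates without virgin 1 and none passed, against 6 and 5 with all 16 libraries and again no call. Ltb, a lymphotoxin made by lymphocytes, measured 0.803 against 0.362 CPM (edgeR adjusted p = 0.148). Tnfrsf13b, the receptor TACI, measured 1.25 against 0.920 CPM (edgeR adjusted p = 0.221). The survival factor gene Tnfsf13b (BAFF) measured 1.85 against 1.601 CPM (edgeR adjusted p = 0.464).

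**Figure D3:**
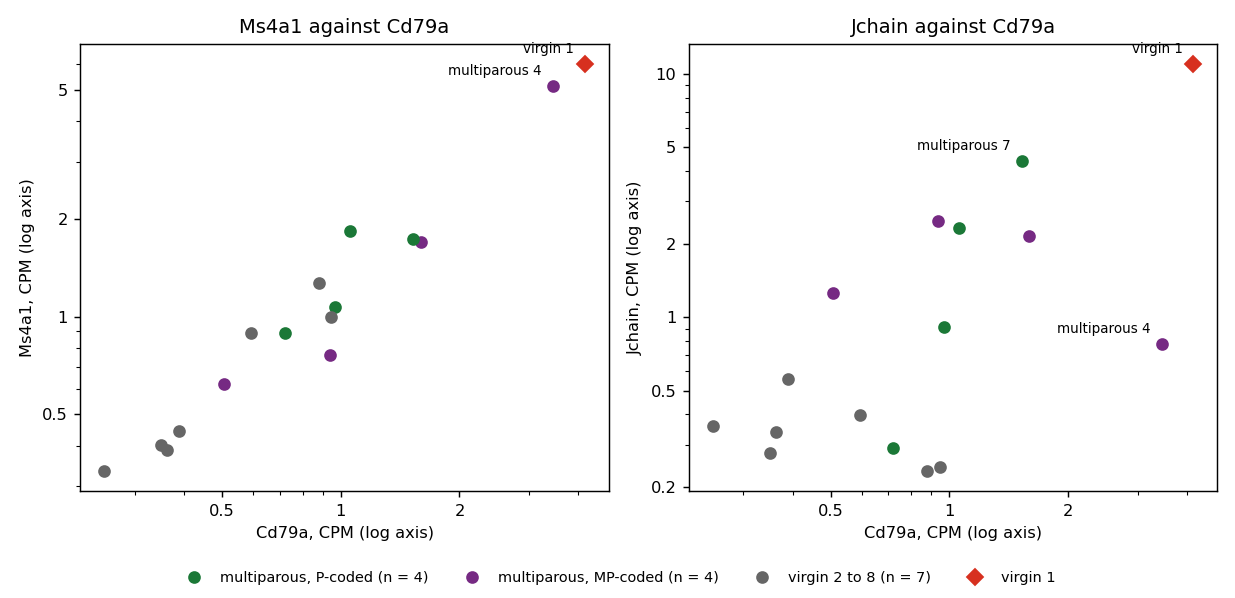
Ms4a1 (left) and Jchain (right) against Cd79a in the 16 libraries, in CPM on log axes. Ms4a1 follows Cd79a in both groups, whereas multiparous 4 combines high Cd79a with Jchain at 0.775 CPM and multiparous 7 reaches 4.40 CPM of Jchain at a lower Cd79a level.

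Across the 16 libraries the surface genes moved together. On log2 CPM with a prior count of 2, Cd79a and Ms4a1 had Pearson's r = 0.98 and Spearman's rho = 0.95, and Cd79a and Cd79b had r = 0.94 and rho = 0.98. Each of these 4 values had a permutation p of 1e-05, the smallest that 100000 permutations can give (adjusted over 6 pairs, 2e-05 for r and 3e-05 for rho). Without the 2 libraries farthest from the median, multiparous 4 and virgin 1, r was 0.95 and 0.91. Within the 8 multiparous hearts r was 0.95 and 0.97, and within the 7 virgin hearts 0.96 and 0.83. Igkc and Jchain had r = 0.95 (permutation p = 1e-05, adjusted 2e-05) and rho = 0.84 (permutation p = 6e-05, adjusted 0.00012), and r = 0.90 without multiparous 7 and virgin 1. Within the 8 multiparous hearts their r was 0.88, but within the 7 virgin hearts it was 0.20. Ighm and Jchain had r = 0.77 and rho = 0.75 (permutation p = 0.0005 and 0.00127, adjusted 0.00075 and 0.0019), with r = 0.70 within multiparous and −0.38 within the 7 virgin hearts, and r = 0.85 without multiparous 4 and 7. Ighm and Ighd had r = 0.61 and rho = 0.65 (permutation p = 0.0136 and 0.00844, adjusted 0.0163 and 0.0101), with r = 0.28 within multiparous and 0.83 within the 7 virgin hearts, and r = 0.48 without multiparous 4 and 7. Mzb1 and Jchain showed no relation past the threshold, at r = 0.40 and rho = 0.25 (permutation p = 0.125 and 0.347, the same adjusted), and r was 0.078 without multiparous 6 and virgin 1. Both genes of a pair share each library's depth, and the groups differ in level, so these values describe the 16 libraries.

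The ratio of Jchain to Cd79a counts, a plain measure of secretory over surface transcripts, had a median of 1.78 in multiparous hearts (0.225 to 2.89) and 0.786 in the 7 virgin hearts (0.256 to 1.43). Virgin 1 gave 2.64. The ratio of Igkc to Ighm counts was 0.193 to 1.29 in multiparous hearts, 0.116 to 0.359 in the 7 virgin hearts and 5.95 in virgin 1. Outside the immunoglobulin loci, the 5 genes most like Ighm by Pearson's r of log2 CPM over 16 libraries were Pdgfc (0.81), Gm28043 (0.81), Ubald1 (0.80), Cr2 (0.80) and Pdia5 (0.79). The 5 most like Jchain were Serpinb1a (0.84), Cd22 (0.84), BC147527 (0.83), Plekha7 (0.83) and Tll1 (0.82). Without virgin 1, r was 0.79 to 0.81 for the genes most like Ighm and 0.73 to 0.76 for those most like Jchain. These are the highest values picked from all tested genes outside the immunoglobulin loci, so they serve as a description alone.

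Virgin 1 also stood apart in its heavy chain constant genes. Its most abundant one was Ighg3, the IgG3 heavy chain, at 16924 counts or 353 CPM, where the other virgin hearts held 0 to 3.00 CPM. It also held 20.5 CPM of Igha, the IgA heavy chain, against 0.376 to 1.82 CPM in the 7 virgin hearts. Ighm therefore made up 6.25% of its heavy chain constant counts, against 27.1% to 38.4% in the other virgin hearts and 27.3% to 72.0% in multiparous hearts. Among multiparous hearts, multiparous 6 held 1887 counts of Ighg3 (38.6 CPM), while the group's median was 0.575 CPM. Multiparous 2 held 647 counts of Ighg2b (14.9 CPM), the IgG2b heavy chain, and multiparous 7 held 281. Ighg2c, the IgG2c heavy chain, differed from all of these, with 14.5 to 23.2 CPM in every library and group means of 18.0 ± 2.26 CPM (multiparous) and 19.2 ± 2.51 CPM (virgin), both SD over n = 8, with an edgeR adjusted p of 0.836. The shares of Ighm depend on this gene, which is part of the heavy chain totals. It made up 698 of 1094 counts in virgin 5 and 1003 of 1749 in virgin 7. In multiparous 6 it made up 886 of 4002, in multiparous 4 555 of 2302 and in virgin 1 1109 of 20665.

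**Figure D4:**
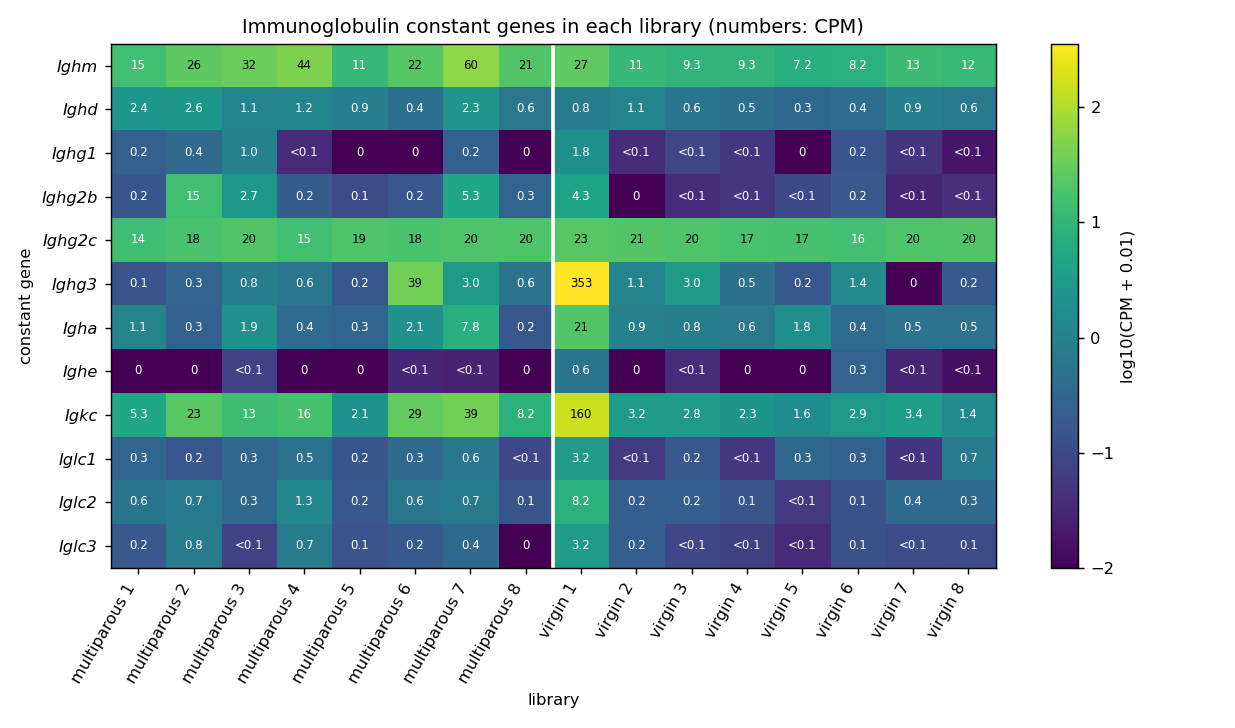
Levels of the immunoglobulin constant genes in each library, as CPM in the cells and as log10(CPM + 0.01) in colour. Virgin 1 reaches 353 CPM of Ighg3 and 160.4 CPM of Igkc, and Ighg2c stays between 14.5 and 23.2 CPM in all 16 libraries.

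Variable segments, which differ from clone to clone, were counted for 185 Ighv and 160 Igkv genes. In virgin 1, Ighv1-80 took 4513 of 5098 Ighv counts (88.5%, 95% Wilson interval 87.6% to 89.4%) and Igkv4-55 took 2161 of 2942 Igkv counts (73.5%, 71.8% to 75.0%). In multiparous 6, Ighv1-26 took 472 of 656 (72.0%, 68.4% to 75.3%) and Igkv10-96 took 568 of 915 (62.1%, 58.9% to 65.2%). In multiparous 4, the heart with the most Cd79a and Ms4a1 of its group, Ighv1-52 took 121 of 222 (54.5%, 47.9% to 60.9%) and Igkv1-117 took 158 of 294 (53.7%, 48.0% to 59.4%). Multiparous 7, which had the most Ighm, Igkc and Jchain of its group, spread its 1065 Ighv counts over 73 segments with no segment above 18.4%, while Igkv5-39 took 443 of its 1258 Igkv counts (35.2%, 32.6% to 37.9%). In multiparous 8, Igkv12-41 took 128 of 235 Igkv counts (54.5%, 48.1% to 60.7%), and in multiparous 2, Igkv3-2 took 299 of 724 (41.3%, 37.8% to 44.9%). No molecular identifiers are named in the labels, so these intervals allow for counting error alone. Counting cannot separate reads of segments that are near copies of each other.

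To set depth aside, each library was thinned to 35 Ighv counts and the expected number of segments computed. Virgin 1 gave 2.45 segments, multiparous 6 gave 5.98, and the other 14 libraries gave 8.86 (virgin 3) to 21.7 (multiparous 5). Thinned to 41 Igkv counts, virgin 1 gave 4.30 segments, virgin 7 gave 5.29 and multiparous 6 gave 5.93, against 7.33 to 24.8 in the other 13. Some of the other virgin hearts were also led by 1 segment. In virgin 8, Ighv5-16 took 225 of 331 Ighv counts (68.0%, 62.8% to 72.8%), and in virgin 7, Igkv14-126 took 115 of 132 Igkv counts (87.1%, 80.3% to 91.8%). On fewer counts, Ighv1-80, the leader of virgin 1, also led virgin 3, with 36 of 57 Ighv counts (63.2%, 50.2% to 74.5%), and virgin 2, with 18 of 78 (23.1%, 15.1% to 33.6%). These counts of Ighv1-80 were 0.798% and 0.399% of those in virgin 1, and whether they have the same source was not tested.

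**Figure D5:**
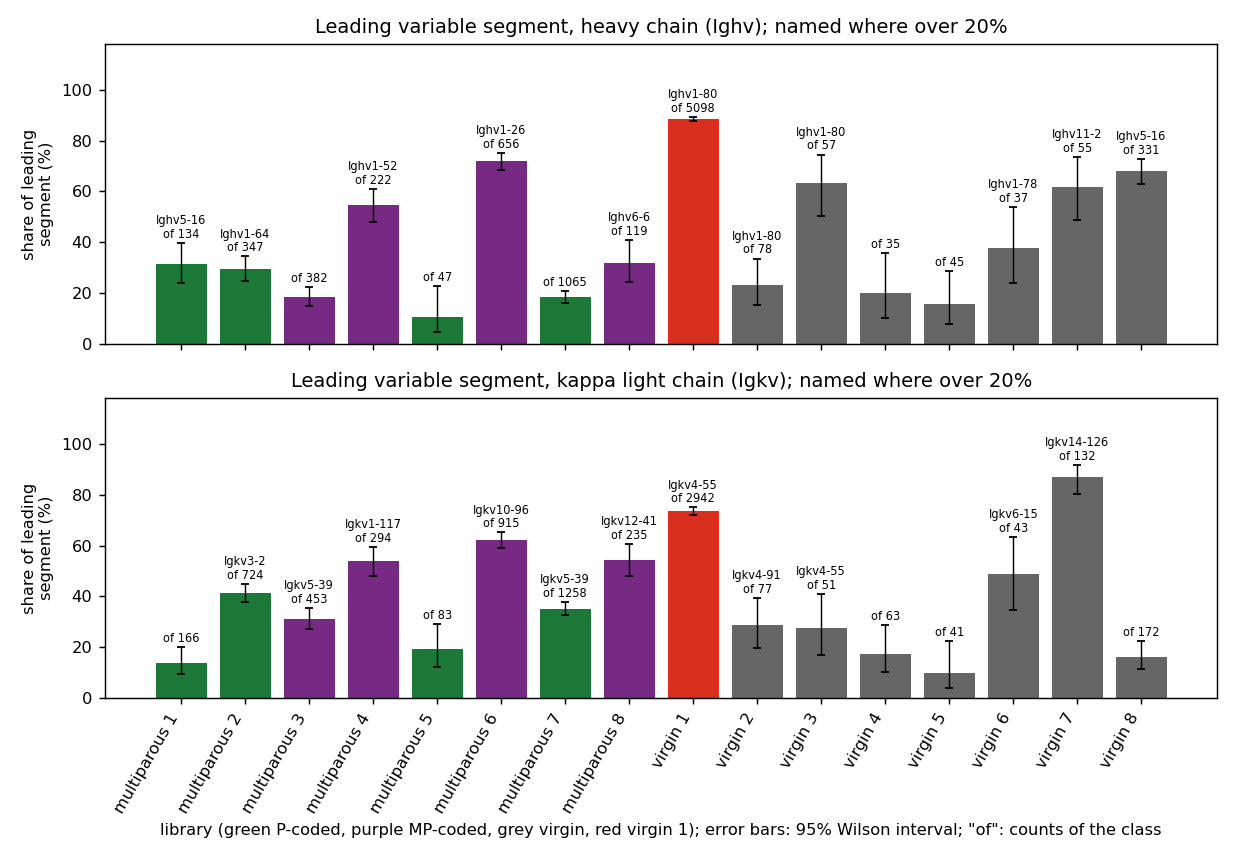
Share of the most counted variable segment among all Ighv counts (top) and all Igkv counts (bottom) in each library, in percent with 95% Wilson intervals and the total behind each share. Virgin 1 has the tallest Ighv bar, at 88.5% of 5098 counts, while most other virgin bars rest on under 100 counts.

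The segments that led virgin 1, multiparous 6 and multiparous 4 are shown because the heavy chain leaders of these hearts are 3 different genes of 1 family. Each is the last 300 bases of the second coding exon, 5′ to 3′ on the minus strand of GRCm38, from the GENCODE M21 transcripts. Ighv1-80 lies at chr12:115912344-115912643, Ighv1-26 at chr12:114788372-114788671, Ighv1-52 at chr12:115145487-115145786 and Igkv4-55, the kappa leader of virgin 1, at chr6:69607275-69607574. Capitals in the 3 heavy chain segments mark the 65 positions that are not the same in all 3, and Igkv4-55, a gene of another locus, is in lower case throughout.
Ighv1-80: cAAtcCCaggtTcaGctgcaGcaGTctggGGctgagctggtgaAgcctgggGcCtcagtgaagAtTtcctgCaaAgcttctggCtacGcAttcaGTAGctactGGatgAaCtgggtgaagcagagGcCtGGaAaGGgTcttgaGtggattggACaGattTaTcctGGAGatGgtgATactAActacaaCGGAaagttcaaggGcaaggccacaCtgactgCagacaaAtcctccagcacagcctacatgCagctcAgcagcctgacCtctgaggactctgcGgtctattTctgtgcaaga
Ighv1-26: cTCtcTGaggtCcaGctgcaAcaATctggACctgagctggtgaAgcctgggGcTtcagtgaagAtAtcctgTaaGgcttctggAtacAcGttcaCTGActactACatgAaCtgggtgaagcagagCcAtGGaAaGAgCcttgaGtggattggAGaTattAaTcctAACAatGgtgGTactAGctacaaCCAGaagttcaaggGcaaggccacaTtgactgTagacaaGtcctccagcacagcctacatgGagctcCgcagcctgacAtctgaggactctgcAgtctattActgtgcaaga
Ighv1-52: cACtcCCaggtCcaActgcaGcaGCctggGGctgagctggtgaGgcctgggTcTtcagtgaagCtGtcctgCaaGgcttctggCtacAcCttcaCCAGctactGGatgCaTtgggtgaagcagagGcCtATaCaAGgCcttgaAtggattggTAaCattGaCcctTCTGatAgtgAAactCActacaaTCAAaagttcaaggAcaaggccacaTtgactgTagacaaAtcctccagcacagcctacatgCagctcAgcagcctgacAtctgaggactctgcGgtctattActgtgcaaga
Igkv4-55: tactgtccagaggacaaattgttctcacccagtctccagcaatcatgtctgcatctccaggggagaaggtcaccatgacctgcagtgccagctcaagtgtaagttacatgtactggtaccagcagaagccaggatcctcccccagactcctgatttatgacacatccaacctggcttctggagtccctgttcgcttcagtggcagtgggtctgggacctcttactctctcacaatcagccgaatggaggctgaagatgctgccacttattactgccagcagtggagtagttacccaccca
Ighv1-80 and Ighv1-26 were identical at 255 of the 300 positions (85.0%), Ighv1-80 and Ighv1-52 at 259 (86.3%) and Ighv1-26 and Ighv1-52 at 248 (82.7%). These are germline reference sequences, so any somatic change in the hearts is not part of them. By level, Ighv1-80 measured 94.2 CPM in virgin 1 and at most 1.001 CPM in the others (virgin 3), and Ighv1-26 measured 9.64 CPM in multiparous 6 and at most 0.752 CPM in the others (multiparous 7).

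Markers of other cells moved to differing degrees. T and NK cell markers had higher estimates for 15 of 17 genes without virgin 1 and none passed, with a median log2 fold change of 0.88. Of the 17, 7 had an unadjusted p under 0.05, all higher, a mark that 6.13% of all genes reached in that direction. With virgin 1 included, 14 of 16 were higher, none passed, and the median was 0.40. Their summed level was 66.7 CPM in multiparous 8 and 15.1 to 20.8 CPM in the other multiparous hearts. It was 14.7 to 20.8 CPM in the 7 virgin hearts and 36.0 CPM in virgin 1. The sums of the groups thus differed through multiparous 8 alone, and how far the estimates rest on that library was not tested. Macrophage markers had higher estimates for 12 of 14 genes in both fits, with none passed, a median of 0.24 without virgin 1 and 0.14 with it, and sums of 273 to 481 CPM, 248 to 327 CPM and 479 CPM. At the same unadjusted mark, 9 of the 14 were higher without virgin 1 and 0 with it. Markers of red cells and platelets, as a sign of residual blood, had higher estimates for 4 of 6 genes without virgin 1 and 3 of 5 with it, with none passed and sums of 19.7 to 108.5 CPM, 15.2 to 91.8 CPM and 49.6 CPM. No gene of that list reached the unadjusted mark in either fit. Kidney tubule markers had lower estimates in multiparous hearts for 12 of 12 genes in both fits, 11 of them with an unadjusted p under 0.05. In either direction, 12.1% of all genes reached that mark without virgin 1 and 8.12% with it. Cltrn and Slc22a8 passed without virgin 1 (both edgeR adjusted p = 0.0480), where 0.128% of all genes were called, and none passed with it. The kidney tubule markers summed to 10.4 to 36.1 CPM in multiparous hearts, 21.0 to 127.5 CPM in the 7 virgin hearts and 113 CPM in virgin 1. Of the remaining lists, estimates were higher without virgin 1 for 5 of 6 plasmacytoid dendritic cell, 4 of 4 adipocyte, 8 of 8 mesothelial and 0 of 8 cardiomyocyte markers and for the 1 lung and thymus marker tested, and none of these passed. Over the 16 libraries these counts were 5 of 6, 2 of 4, 6 of 8, 0 of 8 and 1, again with no call. The lung and thymus marker tested was Cd1d1. The plasmacytoid dendritic cell list summed to 516 to 626 CPM in multiparous hearts. Siglech measured 0.170 to 0.479 CPM over all libraries, so that list does not describe this cell type alone. Defining markers were above 0 in every library, with at least 26 counts of Cd3e, 7 of Siglech and 535 of Adgre1. Their part in the results for the B cell genes was not tested.

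In GRCm38 coordinates, the constant genes lie in the immunoglobulin loci on chromosome 12 (Ighm, ENSMUSG00000076617.9, 113418558 to 113422730, and Ighd, ENSMUSG00000104213.5, 113406604 to 113416324, both minus strand), chromosome 6 (Igkc, ENSMUSG00000076609.2, 70726435 to 70726966, plus strand) and chromosome 16 (Iglc2, ENSMUSG00000076937.3, 19198396 to 19200351, minus strand). Chromosome 7 carries Cd79a (ENSMUSG00000003379.7, 24897381 to 24902197, plus strand). Cd79b (ENSMUSG00000040592.11) is found on chromosome 11, from 106311341 to 106314762 on the minus strand. Ms4a1 (ENSMUSG00000024673.9) lies on chromosome 19 at 11249675 to 11266241, Mzb1 (ENSMUSG00000024353.5) on chromosome 18 at 35647267 to 35649367 and Jchain (ENSMUSG00000067149.6) on chromosome 5 at 88519809 to 88527891, all on the minus strand. The tables hold 1 count per gene, so membrane and secreted forms of Ighm are not separated. Iglc2 shares 38 of its 612 exon bases with Iglj2.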

How the data were processed

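RNA from 16 left ventricles was sequenced as paired reads of 150 bases from stranded, ribosomal RNA-depleted libraries, per the labels' protocols. Per the submitters' processing notes, the tools included Trim Galore 0.6.10, STAR 2.7.11b and HTSeq 0.11.1 and the build was GRCm38.p6. Neither the annotation release nor the strand setting is given in the sources used here. Raw counts per gene were deposited for each library. Unassigned reads (26.5% to 33.1%) were left out of the library totals and of every test. Of the gene identifiers, 97.95% matched GENCODE M21, from which coordinates and sequences come.

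The test was that of edgeR 4.0.16 in R 4.3.3 (TMM factors, filterByExpr, quasi-likelihood F-test on group alone, Benjamini-Hochberg over all tested genes at 0.05), and the fit was tested on simulated data. CPM values are scaled to each library's total over the genes that passed the filter times its TMM factor. A count of 0 allows up to 3 counts, 0.0134 to 0.0844 CPM by library. Alternatives were DESeq2 1.42.0, limma voom 3.58.1, other factors and filters, a replicate block, each library code alone and leaving out each library. The alternatives of the fit without virgin 1 were chosen after seeing the data. The members and all gene lists were chosen with earlier results of these data known. Named genes are all 9 members, the called genes of each list and up to 4 more with the smallest p, and the 5 genes most correlated with Ighm and with Jchain. Immunoglobulin constant genes are named as well. A leading variable segment is named only where it holds over 20% of its class in a library, and not every such segment is described. Library pairs within a group differed by more than sampling noise (lowest chi-square per degree of freedom 9.85). The labels do not say beyond the counts of mice that each library is a separate animal, and p-values therefore cover only the variation among these libraries.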

Additional observations from a re-analysis of the deposited data

Results flagged for a closer look

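In 12 cases the highest library of a group of 8 stood far from the rest of its group by Dixon's test at 95%. Chance alone marks about 1 in 20 groups, and the 9 genes are not independent of each other. Of these, 8 were virgin 1, which held 27.0 CPM of Ighm, 160.4 CPM of Igkc, 8.16 CPM of Iglc2, 4.16 CPM of Cd79a, 6.70 CPM of Cd79b, 5.99 CPM of Ms4a1, 2.63 CPM of Mzb1 and 11.0 CPM of Jchain. The gap was widest for Igkc, at 0.987 of the group's range. Virgin 1 had been set aside with these values known, so its 8 marks restate that choice and are no separate evidence. The other 4 were multiparous 4, which held 1.31 CPM of Iglc2, 3.45 CPM of Cd79a, 2.94 CPM of Cd79b and 5.13 CPM of Ms4a1, and whose Jchain level was below the median of its group.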

How the results depend on the processing

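With all 16 libraries 2 genes were called (1 higher, 1 lower), none of them among the 9. The count was 0 with library totals without factors, 56 without a filter (5 higher, 51 lower), 33 with the replicate block (7 higher, 26 lower), 130 with DESeq2 (62 higher, 68 lower), 0 for MP-coded and 97 for P-coded hearts alone (56 higher, 41 lower), and 0 to 55 when each library was left out. Without virgin 1 it was 23 (9 higher, 14 lower), against 0 without factors, 306 with DESeq2 (138 higher, 168 lower), 5 for MP-coded (3 higher, 2 lower) and 87 for P-coded hearts alone (49 higher, 38 lower), and 1 to 139 when a further library was left out. Between codes it was 2, against 0 without factors, 22 on the multiparous libraries alone and 0 to 134 when each was left out.

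Same-numbered libraries of the groups had correlations of their deviations from −0.11 to 0.29, and not every library correlated best with its own number, so the numbers do not pair the hearts. With the replicate block, DESeq2 and limma voom the direction turned for Igkc (2.06, 2.40 and 1.83), Iglc2 (0.50, 1.27 and 0.51) and Cd79b (0.36, 0.83 and 0.34), and with MP-coded hearts alone for Cd79b (0.081). In DESeq2 the counts of virgin 1 for Iglc2 and Cd79b were imputed as well. Beyond that, the cause was not tested. With each library left out in turn, the log2 fold change ran from −0.68 to 2.79 for Igkc, −1.39 to 1.296 for Iglc2, −0.41 to 0.87 for Cd79b, −0.12 to 1.28 for Ms4a1 and −0.20 to 2.47 for Jchain. The upper ends are the fits without virgin 1. Ighm (1.00 to 1.51), Ighd (1.00 to 1.31), Cd79a (0.070 to 1.23) and Mzb1 (−0.47 to −0.12) kept their direction in those 16 fits. Iglc2 gave no value with the filter at a mean of 1 CPM. Without virgin 1 no gene among the 9 turned under any of the 21 alternatives. Between codes, Ighd ran from −1.52 to −1.06, Ighm from −0.17 to 0.79, Igkc from −0.43 to 0.74, Iglc2 from −0.52 to 0.49, Cd79a from −0.052 to 0.89, Cd79b from −0.027 to 0.72, Ms4a1 from −0.40 to 0.87, Mzb1 from −0.23 to 0.11 and Jchain from −0.58 to 0.54. Iglc2 rests on 2 to 77 counts per library outside virgin 1, which limits its precision.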

Other observations

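Btla, an inhibitory receptor of B and T lymphocytes that is on none of the lists and was picked after its value was seen, passed without virgin 1 with a log2 fold change of 0.82 (SE 0.15, edgeR adjusted p = 0.0480). With all 16 libraries it differed by −0.29 (SE 0.49, edgeR adjusted p = 0.932).

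Virgin 8, the deepest library, had the lowest kappa share of light chain constant counts at 54.6%. It held 166 counts of Iglc1 beside 320 of Igkc, and 137 of its 144 Iglv counts were of Iglv1 (95.1%, 95% Wilson interval 90.3% to 97.6%).

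The transcripts that led virgin 1 were also counted in most other libraries. Virgin 3 held 36 counts of Ighv1-80, 14 of Igkv4-55 and 108 of Ighg3, which were 0.798%, 0.648% and 0.638% of the counts in virgin 1. Virgin 2 held 18, 10 and 45 (0.399%, 0.463% and 0.266%) and multiparous 3 held 24, 9 and 38 (0.532%, 0.416% and 0.225%). Multiparous 4 held 19 counts of Igkv4-55 (0.879%) and 0 of Ighv1-80, multiparous 6 held 1887 of Ighg3 (11.1%), and virgin 7 held 0 of each. Whether these shares have 1 source was not tested.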
